A study of Mus musculus with 6 samples.

Results

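The genes described here are 60 genes of mitosis and cytokinesis, measured in hair follicle stem cells of mice given diphtheria toxin (DT) or saline. They were taken from a list of names that was made with earlier results of these data known. The list covers mitotic cyclins and kinases, the spindle checkpoint, anaphase, the chromosomal passenger complex, the kinetochore, the spindle, cytokinesis and chromosome condensation. All 60 were found among the 36528 Entrez gene identifiers of the deposited tables. Polyadenylated RNA was sequenced from skin cells sorted for CD49f (the integrin Itga6) and for CD34, from which GFP-positive cells were left out. The DT group had 3 libraries of Lgr5-DTReGFP mice treated with DT. The saline group had 3 libraries of mice of the same genotype treated with saline (NaCl in the labels). Both groups therefore carried the allele, in which Lgr5, a receptor of cycling and lower-follicle stem cells, drives the DT receptor and eGFP, and no mice without it were included. Dose, time after DT, age and hair cycle stage were not stated. Whether each library is a separate animal is not stated either, so the p-values below reflect the variation among the 6 libraries, part of which may be technical.

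Entry into mitosis is driven by the kinase Cdk1 bound to cyclin A or B, and its end by the anaphase-promoting complex (APC/C), a ubiquitin ligase that marks cyclin B and securin for destruction. In between, kinetochores join chromosomes to the spindle, the spindle checkpoint delays anaphase until all are attached, condensin compacts the chromosomes and a ring of actin and myosin divides the cell. Transcripts of most of these genes are low in resting cells and peak in G2 and mitosis. Bulge stem cells of the hair follicle are known to rest for most of the hair cycle.

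The libraries held 15300755 to 25558859 reads in genes. Cd34 was at 2553, 1883 and 2606 CPM (reads scaled to a common library total by TMM) in DT libraries 1 to 3, against 2406, 2917 and 3088 CPM in saline libraries 1 to 3. The bulge keratin Krt15 was at 23940 to 42950 CPM in DT libraries, against 28139 to 41302 CPM in saline libraries, and neither Cd34 nor Krt15 passed the edgeR test. Of 8 markers of the sort and of bulge stem cells, 1 rose, 3 fell and 4 did not pass. Over all 15132 genes tested 17.2% rose and 11.9% fell, and the marker counts in this paragraph are to be read beside these shares. The sort marker Itga6 was at 98.1, 88.6 and 110 CPM in DT libraries, against 146, 114 and 107 CPM in saline libraries (adjusted p = 0.16), and the basal keratin Krt5 did not pass either (adjusted p = 0.195). Krt14, another basal keratin, rose by 1.78 on the log2 scale, with 8363 to 9374 CPM in DT libraries, against 2283 to 2933 CPM in saline libraries (adjusted p = 5.16e-05). The bulge transcription factors Lhx2 and Sox9 fell by 1.09 (adjusted p = 0.00696) and 0.71 (adjusted p = 0.0342) on the log2 scale. Lhx2 was at 72.1 to 108 CPM in DT libraries, against 139 to 250 CPM in saline libraries, and Sox9 was at 493 to 730 CPM in DT libraries, against 729 to 1296 CPM in saline libraries, so that Sox9 overlapped between the groups. Lgr5, which drives the receptor, was at 7.08, 6.98 and 7.27 CPM in DT libraries, against 17.3, 31.6 and 23.2 CPM in saline libraries, and fell by 1.76 (SE 0.24) in log2 terms, with an adjusted p of 0.000864. Markers of other cells were measured as well: 16 immune markers summed to 142 to 175 CPM in DT libraries, against 220 to 313 CPM in saline libraries, with 8 of 14 tested lower and Itgam higher. Summed levels in DT and in saline libraries were 114 to 168 and 207 to 365 CPM for 8 fibroblast markers (2 of 3 tested lower), and 64.0 to 83.5 and 99.6 to 140 CPM for 6 melanocyte markers (3 of 4 lower). In each of these sums 1 gene held most of the reads. In DT and in saline libraries, Cd74 was at 87.1 to 104 and 131 to 172 CPM among the immune markers. Fbln1 was at 105 to 151 and 184 to 323 CPM among the fibroblast markers, and Mitf at 56.1 to 74.7 and 86.1 to 113 CPM among the melanocyte markers. For 7 markers of hair matrix and suprabasal cells the sums were 56.3 to 58.4 CPM in DT and 85.1 to 155 CPM in saline (3 of 6 lower), and for 6 endothelial markers 7.64 to 11.5 CPM in DT and 3.42 to 22.5 CPM in saline (none of 4 passed in edgeR, DESeq2 or limma-voom, and 0 had an unadjusted p under 0.05). Of 5 muscle and pericyte markers, Acta2 rose (23.1, 88.2 and 102 CPM in DT libraries 1 to 3, against 0.601 to 1.13 CPM in saline libraries), while Rgs5 was at 0 in every library and Des, Myh11 and Pdgfrb were below 1 CPM. The part of these markers in the results below was not tested.

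Of the 60 genes, 57 rose in DT, Pttg1 fell, and Cdc25b and Espl1 did not pass the test (edgeR quasi-likelihood test, Benjamini-Hochberg adjusted p under 0.05). Over all 15132 genes tested, 17.2% rose and 11.9% fell. The median log2 fold change was 3.39, a 10.5-fold difference, against -0.01 over all genes tested. A rise of more than 4-fold was found for 51 of the 60, against 4.71% of all genes. Every DT library lay above every saline library for 57, against 25.4% of all genes. Because the 60 were chosen with earlier results of these data known, these shares describe the list and do not test it. Together the 60 genes took 3044, 5441 and 5453 CPM in DT libraries 1 to 3, against 937, 875 and 931 CPM in saline libraries 1 to 3. In RNA from bulk cells, a larger share of dividing cells and more of these transcripts per cell cannot be told apart.

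**Figure D1:**
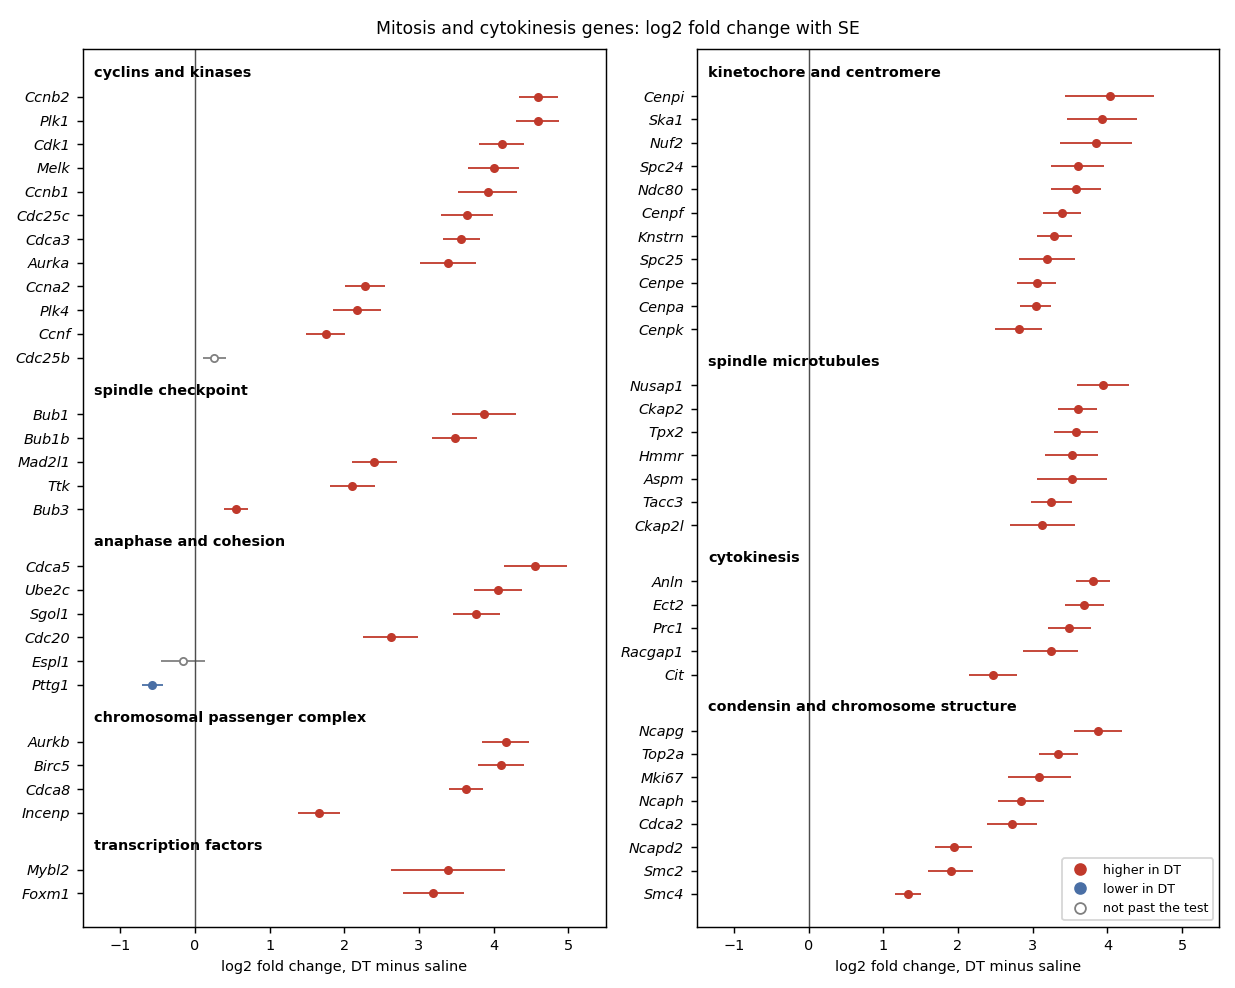
Log2 fold change (DT minus saline, horizontal axis) of each of the 60 genes, grouped by role, as the edgeR estimate with a bar of 1 standard error. Filled red points rose, the filled blue point (Pttg1) fell, and the open points (Cdc25b and Espl1) did not pass the test. Most points lie right of 2.

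Among 12 cyclins, kinases and their activators, 11 rose, with a median log2 fold change of 3.6. Cdk1 (Entrez 12534, chromosome 10 from 69335146 to 69352912 in GRCm38), the kinase of mitotic entry, was at 92.5, 201 and 207 CPM in DT libraries 1 to 3, against 10.2, 9.02 and 9.68 CPM in saline libraries 1 to 3. All DT libraries were far above all saline libraries, and DT library 1 was the lowest of its group. The 2 B-type cyclins that activate Cdk1 also rose, Ccnb2 by 4.60 (SE 0.26, adjusted p = 1.69e-05) and Ccnb1 by 3.92 (SE 0.39, adjusted p = 0.000147) on the log2 scale. Ccnb1 was at 17.4, 38.3 and 42.3 CPM in DT and at 3.11, 1.76 and 1.56 CPM in saline. Cyclin A, encoded by Ccna2 and used from S phase onward, rose less, with a log2 fold change of 2.28 (SE 0.27), and Ccnf, an F-box protein that shares the cyclin fold, rose by 1.75 (SE 0.26).

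The kinase Plk1, which acts in spindle assembly and mitotic exit, was at 34.5, 56.3 and 65.5 CPM in DT libraries, against 1.99, 2.64 and 1.87 CPM in saline libraries. That is a 24.1-fold rise (SE 0.29 on the log2 scale), about the same as that of Ccnb2 at 24.3-fold. Aurka, the kinase of spindle poles, rose by 3.39 (SE 0.38) and Melk by 4.0 (SE 0.34), whereas Plk4, which controls centriole duplication, rose by 2.17 (SE 0.32). Cdca3, which promotes mitotic entry, rose by 3.57 (SE 0.25).

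The phosphatases that activate Cdk1 differed. Cdc25c was at 24.3, 42.1 and 44.7 CPM in DT libraries, against 4.48, 2.22 and 2.17 CPM in saline libraries, and rose by 3.64 (SE 0.35) on the log2 scale, with an adjusted p of 0.000107. Cdc25b was at 166, 140 and 186 CPM in DT libraries, against 119, 139 and 153 CPM in saline libraries. These values overlap, and the difference of 0.26 on the log2 scale (SE 0.15) missed the threshold (adjusted p = 0.214). The ratio of Cdc25c to Cdc25b, in RPKM within a library, was 0.195 to 0.40 in DT and 0.0189 to 0.0502 in saline. A further gene of this family, Cdc25a, had a log2 fold change of 0.06 (adjusted p = 0.829).

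**Figure D2:**
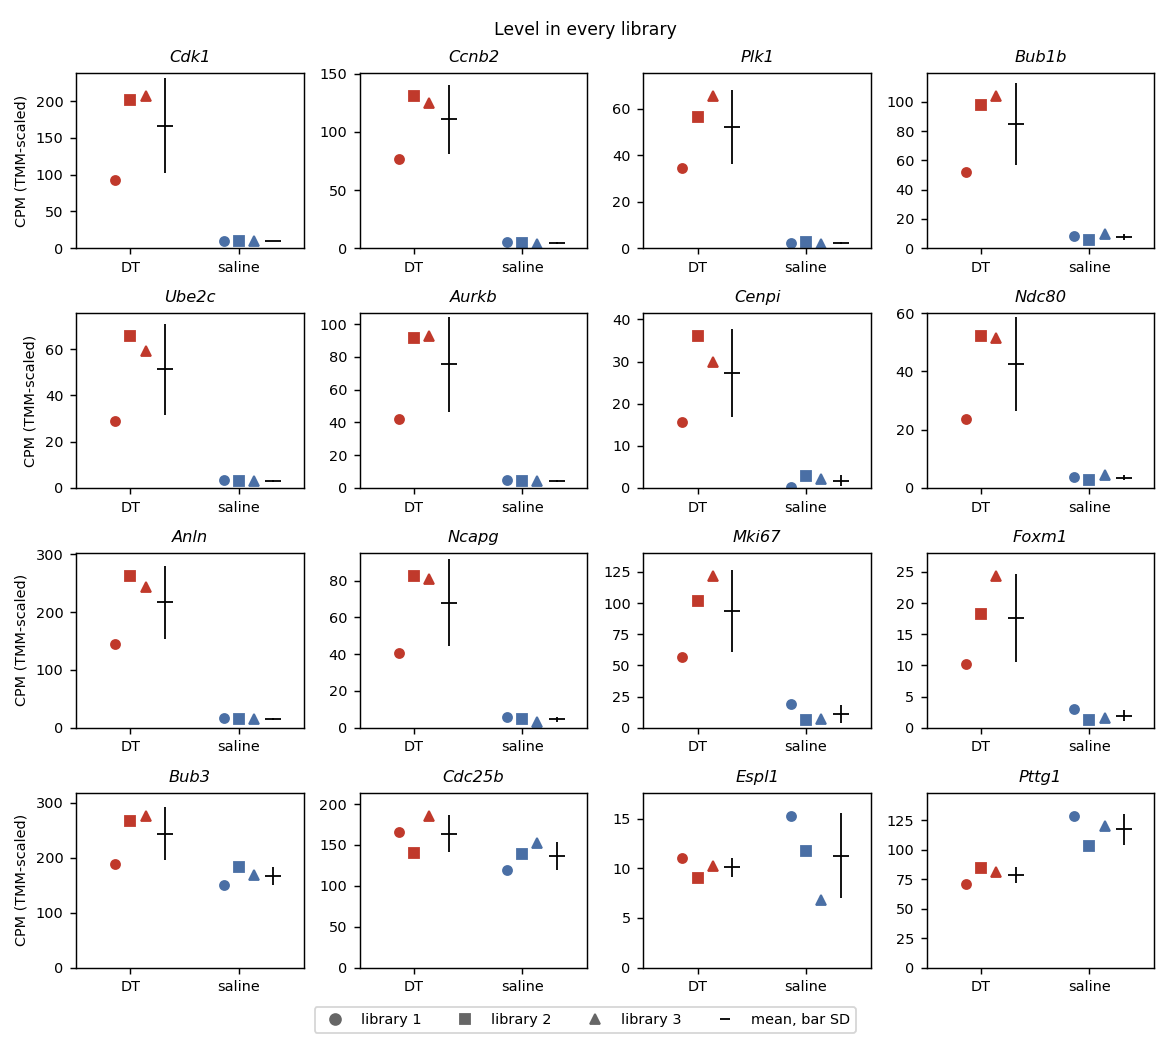
CPM after TMM scaling (vertical axis, from 0) of 16 genes in each library, DT left and saline right, with marker shapes for libraries 1 to 3 and the mean with SD beside them. The first 12 genes are far higher in all DT libraries, with library 1 the lowest of its group. In the bottom row Bub3 is modestly higher, Cdc25b and Espl1 overlap between groups and Pttg1 is lower in DT.

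Promoters of genes of this class are known for repeated CCAAT boxes and for the cell cycle homology region (CHR), a TTTGAA element bound by DREAM and MuvB complexes. Because the genes moved together, the 250 bases before each start in RefSeq (GRCm38.p6) were searched for CCAAT and TTTGAA on both strands. Windows were available for 50 of the 60 genes, 55 in all since some genes have several starts. CCAAT was in 69.1% of these windows and in 33.8% of the 32851 windows of all genes, and TTTGAA was in 34.5% and 16.0%. Both were present in 18 of the 55 windows (32.7%), against 5.55% of all windows. Windows of the same gene can overlap, and counted by gene 16 of the 50 had a window with both. Another CHR form, TTTAAA, was in 12.7% of the windows and 12.1% of all. A spacing was seen while reading them, with 2 CCAAT boxes on 1 strand and starts 30 to 36 bases apart. It was in 8 of the 55 windows (14.5%), those of Cdk1, Ccnb1, Ccnb2, Aurka, Cdca8, Spc25, Hmmr and Ube2c, and in 1.16% of all. As the spacing was picked from these same windows, its share in them cannot count as a test. No CCAAT match shared a base with a TTTGAA match in the 55 windows, and 16 of them held neither.

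The promoters of 3 genes that rose and hold both motifs are printed with that of Bub3, which rose least. Each runs from the farthest base to the base before the start on the strand of the gene. Capitals mark CCAAT or its complement ATTGG, and TTTGAA or its complement TTCAAA.
Cdk1 (chr10:69352913-69353162, minus strand): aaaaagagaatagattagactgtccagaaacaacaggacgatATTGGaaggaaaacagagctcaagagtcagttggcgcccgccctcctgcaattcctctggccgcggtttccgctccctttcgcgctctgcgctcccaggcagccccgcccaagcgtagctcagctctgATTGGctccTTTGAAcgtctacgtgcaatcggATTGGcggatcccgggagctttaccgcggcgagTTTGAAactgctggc
Ccnb2 (chr9:70421555-70421804, minus strand): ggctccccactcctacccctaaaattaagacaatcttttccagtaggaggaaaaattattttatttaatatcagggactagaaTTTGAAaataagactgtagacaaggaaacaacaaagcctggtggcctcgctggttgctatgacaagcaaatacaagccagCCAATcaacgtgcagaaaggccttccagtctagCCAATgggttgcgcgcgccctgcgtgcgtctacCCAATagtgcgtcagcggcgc
Top2a (chr11:99024190-99024439, minus strand): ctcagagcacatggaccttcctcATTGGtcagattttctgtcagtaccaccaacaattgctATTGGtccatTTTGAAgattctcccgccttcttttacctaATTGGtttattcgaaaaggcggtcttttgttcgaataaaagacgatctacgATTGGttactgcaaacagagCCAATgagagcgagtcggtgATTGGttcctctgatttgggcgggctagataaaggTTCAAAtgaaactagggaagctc
Bub3 (chr7:131560120-131560369, plus strand): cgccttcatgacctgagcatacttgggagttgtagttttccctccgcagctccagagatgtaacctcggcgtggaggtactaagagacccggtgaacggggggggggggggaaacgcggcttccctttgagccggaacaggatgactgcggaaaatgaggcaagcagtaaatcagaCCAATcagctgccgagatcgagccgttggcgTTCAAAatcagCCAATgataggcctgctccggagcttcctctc
Cdk1 has TTTGAA beginning 15 and 71 bases before the start, the positions being -15 and -71, and CCAAT boxes on the other strand at -48, -80 and -208. Ccnb2 has CCAAT boxes at -21, -54 and -87. Bub3 also holds both motifs, with CCAAT at -32 and -74 in the printed window and at -156 and -198 in its other one. Their presence in the window therefore does not separate Bub3 from the others. Espl1 holds both as well, with ATTGG at -44 and TTTGAA at -27. The window of Pttg1 holds neither, and it lies inside the annotated gene. All other windows without either motif belong to genes that rose by more than 4-fold, among them Anln, Birc5 and Nusap1. Absence of both motifs therefore does not separate Pttg1 from genes that rose. A match is a string of letters and not evidence of binding.

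All 5 spindle checkpoint genes rose, and their median of 2.4 was the lowest of the 9 roles. Bub1b, which encodes the checkpoint protein BubR1, was at 52.3, 97.9 and 104 CPM in DT libraries, against 8.08, 5.46 and 9.29 CPM in saline libraries, a rise of 3.48 (SE 0.30) on the log2 scale, with an adjusted p of 6.56e-05. The kinase Bub1 rose by 3.87 (SE 0.43). Mad2l1, which holds the APC/C activator inactive, rose by 2.4 (SE 0.30), and Ttk, the kinase that starts checkpoint signalling, by 2.11 (SE 0.30).

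Bub3, which recruits Bub1 and BubR1 to kinetochores, was at 189, 267 and 277 CPM in DT libraries, against 150, 183 and 168 CPM in saline libraries. The groups do not overlap, but DT library 1 lies only just above the highest saline library. Its log2 fold change was 0.55 (SE 0.16, adjusted p = 0.0312), and the call was lost when any single library except DT library 1 was left out (adjusted p of 0.0581 to 0.161), nor when scaled by library size only (0.46, adjusted p = 0.063). Per length it was the most abundant of the 60 genes in both groups, at 106 ± 22.5 RPKM in DT and 72.2 ± 7.16 RPKM in saline (SD, n = 3). The ratio of Bub1b to Bub3 in RPKM was 0.163, 0.217 and 0.223 in DT libraries, against 0.0319, 0.0176 and 0.0326 in saline libraries.

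The 6 genes of anaphase and sister chromatid cohesion were the most divided group: 4 rose, Pttg1 fell and Espl1 did not pass. Pttg1 encodes securin, which holds the protease separase inactive until anaphase, and Espl1 encodes separase. Pttg1 (Entrez 30939, chromosome 11 from 43420244 to 43427463) was at 71.3, 84.1 and 80.9 CPM in DT libraries, against 129, 103 and 120 CPM in saline libraries. Each DT library was below each saline library, and it fell by 0.57 (SE 0.14) in log2 terms, with an adjusted p of 0.0128. It stayed between -0.51 and -0.66 and past the test when any 1 library was left out. Espl1 (Entrez 105988, chromosome 15 from 102296254 to 102324357) was at 11, 9.06 and 10.2 CPM in DT libraries, against 15.3, 11.7 and 6.82 CPM in saline libraries, a log2 difference of -0.16 (SE 0.29) that did not pass, with an adjusted p of 0.715. The saline libraries alone spanned the DT range, and without saline library 1 the sign turned (0.11). Neither gene overlaps another annotated gene.

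The ratio of Pttg1 to Ccnb1, both targets of the APC/C, was 5.36, 2.88 and 2.51 RPKM per RPKM in DT libraries, against 54.4, 76.6 and 100 in saline libraries. The other genes of this role rose: Cdca5, the cohesin-binding protein sororin, by 4.56 on the log2 scale (SE 0.42), the cohesin protector Sgol1 by 3.77 (SE 0.32), Ube2c, the E2 enzyme of the APC/C, by 4.06 (SE 0.32), and Cdc20, its mitotic activator, by 2.62 (SE 0.37). Ube2c was at 28.9, 65.7 and 59.2 CPM in DT libraries, against 3.48, 2.78 and 2.95 CPM in saline libraries. Cdc20 was at 20.0, 27.3 and 26.4 CPM in DT libraries, against 6.71, 2.45 and 2.78 CPM in saline libraries, a rise that came to 3.21 when saline library 1 was left out. Cdca5 had 17, 56 and 28 reads in saline libraries 1 to 3, and leaving out saline library 2 gave 5.20 on the log2 scale.

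All 4 subunits of the chromosomal passenger complex, which corrects faulty kinetochore attachments, rose, with the highest median of the roles at 3.87. Its kinase Aurkb was at 42.1, 91.3 and 92.9 CPM in DT libraries, against 4.60, 4.02 and 3.99 CPM in saline libraries (log2 fold change 4.16, SE 0.31, adjusted p = 3.70e-05). Survivin, encoded by Birc5, rose by 4.10 (SE 0.31), and borealin, encoded by Cdca8, by 3.63 (SE 0.23). Incenp, the scaffold of the complex, rose by 1.66 (SE 0.28, adjusted p = 0.00224), with 11.6, 16.4 and 14.9 CPM in DT libraries, against 6.09, 3.42 and 4.04 CPM in saline libraries. In DT the levels per length were 87.7 ± 27.0 RPKM for Cdca8, 32.8 ± 13.0 RPKM for Aurkb, 23.2 ± 8.61 RPKM for Birc5 and 3.52 ± 0.669 RPKM for Incenp. The ratio of Aurkb to Incenp was 6.38 to 11 in DT libraries, against 1.33 to 2.07 in saline libraries.

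The 11 kinetochore and centromere genes all rose by more than 4-fold, with log2 fold changes of 2.81 to 4.03 and a median of 3.39. The 4 subunits of the Ndc80 complex, which binds microtubules, rose by similar amounts: Ndc80 by 3.58 (SE 0.34), Nuf2 by 3.85 (SE 0.48), Spc24 by 3.6 (SE 0.36) and Spc25 by 3.19 (SE 0.37). Ndc80 was at 23.8, 52.2 and 51.5 CPM in DT libraries, against 3.61, 2.54 and 4.47 CPM in saline libraries. Their levels per length in DT were 18.3 ± 7.21, 20.0 ± 9.5, 29.5 ± 12.3 and 31.8 ± 12.9 RPKM in the same order, and the ranges of the 4 over the DT libraries overlapped. In saline the 4 were at 1.51 ± 0.416, 1.37 ± 0.770, 2.4 ± 0.786 and 3.44 ± 1.46 RPKM.

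Cenpa, the histone H3 variant of centromeres, was at 41.3, 57.9 and 48.1 CPM in DT libraries, against 7.0, 5.78 and 5.12 CPM in saline libraries (log2 fold change 3.04, SE 0.21, adjusted p = 3.28e-05). Its DT values differed less between libraries than those of most of the 60. Cenpi, of the inner kinetochore, had the widest error of its role (4.03, SE 0.60, adjusted p = 0.00128), with 6 reads in saline library 1 against 60 and 46 in saline libraries 2 and 3. The kinesin Cenpe rose by 3.05 (SE 0.26), Cenpf by 3.39 (SE 0.25), Cenpk by 2.81 (SE 0.32), Knstrn, which encodes a spindle and kinetochore protein, by 3.29 (SE 0.24) and Ska1, which tracks microtubule ends, by 3.93 (SE 0.47).

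All 7 genes of spindle microtubules rose by more than 4-fold, between 3.13 and 3.94 on the log2 scale. Nusap1, which bundles spindle microtubules, was at 67.9, 159 and 145 CPM in DT libraries, against 10, 5.23 and 8.94 CPM in saline libraries (3.94, SE 0.35, adjusted p = 7.85e-05). Tpx2, the activator of Aurka, rose by 3.58 (SE 0.29), Hmmr by 3.52 (SE 0.35), Tacc3 by 3.25 (SE 0.28) and Ckap2 by 3.6 (SE 0.26). Aspm, which acts at spindle poles, rose by 3.52 (SE 0.47), or 4.11 without saline library 1. Ckap2l was at 92.6, 148 and 142 CPM in DT libraries, against 5.10, 20.5 and 18.2 CPM in saline libraries, where library 1 was the low one (3.13, SE 0.43).

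The 5 cytokinesis genes rose, with a median of 3.49. Anln, the actin-binding scaffold anillin of the cleavage furrow, was at 145, 263 and 243 CPM in DT libraries, against 17.1, 14.7 and 14.5 CPM in saline libraries (3.81, SE 0.23, adjusted p = 2.80e-05). Prc1, which bundles the microtubules of the central spindle, was at 123, 280 and 271 CPM in DT libraries, against 20.1, 19.1 and 20.7 CPM in saline libraries (3.49, SE 0.29, adjusted p = 5.75e-05). In both cases the lowest DT library was several times the highest saline library. Ect2, the exchange factor that activates RhoA at the furrow, rose by 3.69 (SE 0.26), and its partner Racgap1 by 3.24 (SE 0.37). Citron kinase, encoded by Cit and needed for the final separation, rose least, by 2.47 (SE 0.32), and was at 1.91 ± 0.571 RPKM in DT and 0.341 ± 0.131 RPKM in saline.

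Condensin and other genes of chromosome structure all rose, 8 of 8, with a median of 2.78. The ATPase subunits Smc2 and Smc4, which condensin I and II share, rose by 1.90 (SE 0.30, adjusted p = 0.00174) and 1.33 (SE 0.17, adjusted p = 0.00061). Smc4 was at 144, 232 and 203 CPM in DT libraries, against 79.7, 74.9 and 75.3 CPM in saline libraries. Of the subunits particular to condensin I, Ncapg rose most, by 3.87 (SE 0.32), with 40.5, 82.6 and 80.7 CPM in DT libraries, against 6.01, 4.53 and 3.34 CPM in saline libraries. Ncaph rose by 2.84 (SE 0.31) and Ncapd2 by 1.94 (SE 0.25). The subunits particular to condensin II, outside the 60, also rose, Ncapg2 by 1.89, Ncapd3 by 1.03 and Ncaph2 by 0.61.

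The level per length of Ncapg was 16.6 ± 6.05 RPKM in DT and 1.12 ± 0.323 RPKM in saline, and that of Smc4 was 28.8 ± 7.16 RPKM in DT and 11.4 ± 0.395 RPKM in saline. Their ratio was 0.458 to 0.649 in DT libraries, against 0.0726 to 0.123 in saline libraries. In all, 10 ratios of a pair of members were compared between groups, and 8 of them did not overlap. Each of the 8 had p = 0.10 (exact permutation test, two-sided, 3 against 3 libraries; adjusted p = 0.12 over the 10), the smallest p such a test can give, and the pairs were chosen after the levels were seen. The ratios of Espl1 to Pttg1 and of Nuf2 to Ndc80 overlapped between groups. How often ratios of other gene pairs separate the groups was not counted.

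**Figure D3:**
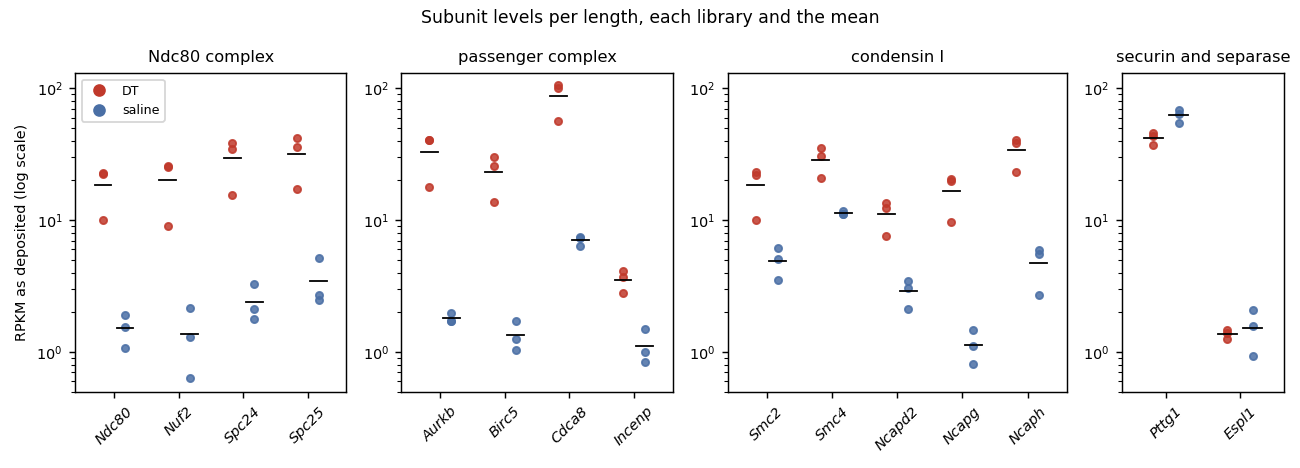
Deposited RPKM (vertical axis, log scale) of the subunits of the Ndc80 complex, the chromosomal passenger complex and condensin I, and of securin (Pttg1) and separase (Espl1). Points are libraries, DT left in red and saline right in blue, and lines are means. Ndc80 subunits rise together, Incenp and Smc4 shift less than their partners, and Pttg1 is lower in DT.

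Top2a, the topoisomerase that untangles sister chromatids, was at 213, 366 and 429 CPM in DT libraries, against 39.8, 28.4 and 31.2 CPM in saline libraries (3.34, SE 0.26, adjusted p = 4.28e-05). Mki67, whose product coats mitotic chromosomes and marks cycling cells, was at 57.1, 102 and 122 CPM in DT libraries, against 19.1, 6.48 and 7.34 CPM in saline libraries. Its log2 fold change was 3.09 (SE 0.42, adjusted p = 0.000816), or 3.75 without saline library 1, the highest of its group. Cdca2, which anchors a phosphatase to chromatin, rose by 2.72 (SE 0.33).

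Both transcription factors among the 60, which drive the mitotic genes from CHR promoters, rose and per length were among the scarcest members in DT. Foxm1 was at 10.3, 18.3 and 24.4 CPM in DT libraries, against 2.94, 1.25 and 1.61 CPM in saline libraries (3.19, SE 0.41, adjusted p = 0.000553). Mybl2, which encodes B-Myb, had 100, 100 and 170 reads in DT libraries and 0, 15 and 24 reads in saline libraries. Its log2 fold change of 3.39 (SE 0.76, adjusted p = 0.00889) had the widest error of the 60, and it came to 2.77 when saline library 1 was left out and to 4.14 when saline library 3 was.

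Levels per length spread over 1.30 to 106 RPKM in DT, with a median of 18.5, and over 0.124 to 72.2 RPKM in saline, with a median of 1.88. A mean of at least 10 RPKM was reached by 44 genes in DT and by 4 in saline, namely Bub3, Pttg1, Cdc25b and Smc4. Bub3, Pttg1 and Cdc25b, with Espl1, are also the 4 genes that changed by less than 2-fold, and Smc4 had the smallest change among the rest. Across the 60 genes, the saline RPKM and the log2 fold change had a Spearman rho of -0.36. This is a description, since all points share the same 6 libraries and the saline level enters both measures.

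DT library 1 had the lowest level of its group for 58 of the 60 genes. It was also the lowest for 30 of 31 DNA replication genes, so this order is not particular to the mitotic genes. The share over all genes was not counted. The median over the 60 genes of log2 CPM minus the saline mean was 2.79, 3.68 and 3.78 in DT libraries 1 to 3, against 0.17, -0.17 and -0.02 in saline libraries 1 to 3. Within all 9 roles the median was likewise lowest in DT library 1 among the DT libraries. Without DT library 1 the median log2 fold change was 3.64, and 57 genes rose. Acta2 was also lowest in DT library 1, and its part in this order was not tested. Saline library 1, which stood apart from the other saline libraries on the second axis of variation of all genes (15.9%), was more than 2-fold above the mean of the other saline libraries for 8 members, among them Mki67, Racgap1 and Aurka. It was more than 2-fold below it for 5 (Cdca5, Cenpi, Ckap2l, Ncaph and Mybl2). Without it 56 rose and Pttg1 still fell.

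**Figure D4:**
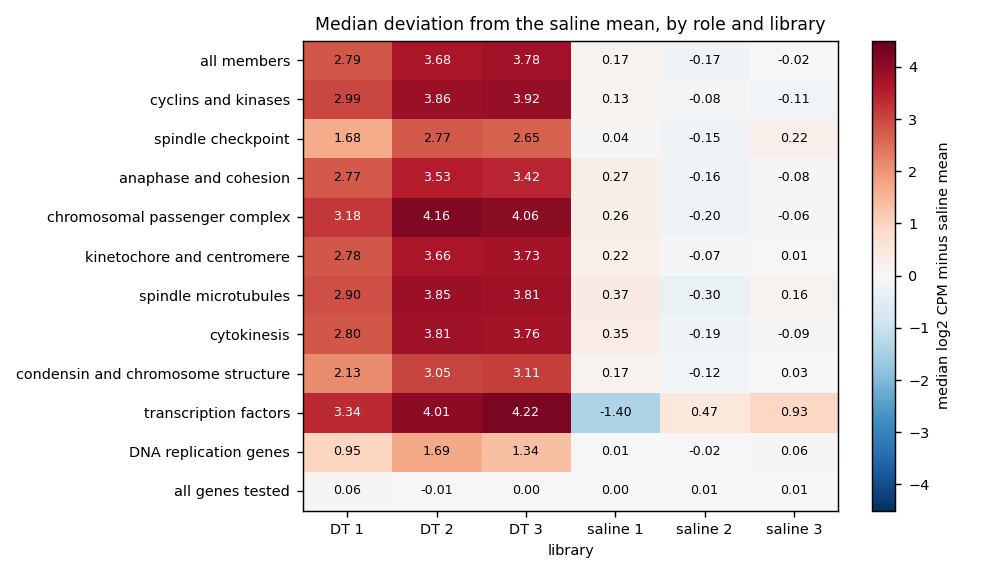
Median over the genes of each role of log2 CPM minus the saline mean, in each library (columns, DT left and saline right), on a colour scale with the values printed in the cells. DT library 1 is the palest DT column in every role, DNA replication genes have lower DT medians than the 9 roles, and all genes tested stay near 0.

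The median of 3.39 for the 60 mitosis and cytokinesis genes was above those of 7 other lists of the division machinery. All these lists were chosen with earlier results of these data known, so this order is a description and was not tested. Of 31 DNA replication genes, 28 rose, with a median of 1.32 (led by Mcm10 at 3.70, Orc1 at 3.5 and Gins1 at 2.49). The share of all genes tested that rose was 17.2%, for comparison with this list and those that follow. Among the DT libraries, the mitotic genes were highest in library 2 in 36 of 60 cases and in library 3 in 23, while replication genes were highest in library 2 in 30 of 31 cases. How many of all genes were highest in each DT library was not counted. Of 24 further centromere and kinetochore genes, 19 rose, with a median of 1.81. Ska3 rose by 3.52, Cenpn by 3.32 and Casc5 (current symbol Knl1) by 3.28.

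Over all genes tested 17.2% rose, and the counts in this paragraph are to be read beside that share. Of 15 further APC/C genes 4 rose, with a median of 0.35: Anapc15 by 1.74, Cdc16 by 0.45, Cdc23 by 0.45 and Anapc5 by 0.42. Cdc16, Cdc23 and Anapc5 passed narrowly (edgeR, adjusted p of 0.0354 to 0.0457). DESeq2 called 5 of the 15 and limma-voom 3. The APC/C activator and E2 enzyme among the 60, Cdc20 and Ube2c, rose by 2.62 and 4.06, whereas these 15 had log2 fold changes of -0.26 to 1.74. None of 10 genes of cohesin and its loaders and release factors passed in edgeR, in DESeq2 or in limma-voom, and 1 had an unadjusted p under 0.05, with a median of 0.05. Of 13 mitotic entry and exit regulators 12 were tested, and 5 rose, among them Mastl, the Greatwall kinase, by 3.05, Fbxo5, an inhibitor of the APC/C, by 2.66 and Bora by 1.62. Wee1, the kinase that opposes Cdk1, had a log2 fold change of -0.33 and did not pass (adjusted p = 0.295). Of 9 DREAM complex genes 4 rose, among them Rbl1 by 1.20, Tfdp1 by 1.03 and Lin9 by 0.83, and Rbl2, a pocket protein of resting cells, fell by 0.43 (adjusted p = 0.0459).

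**Figure D5:**
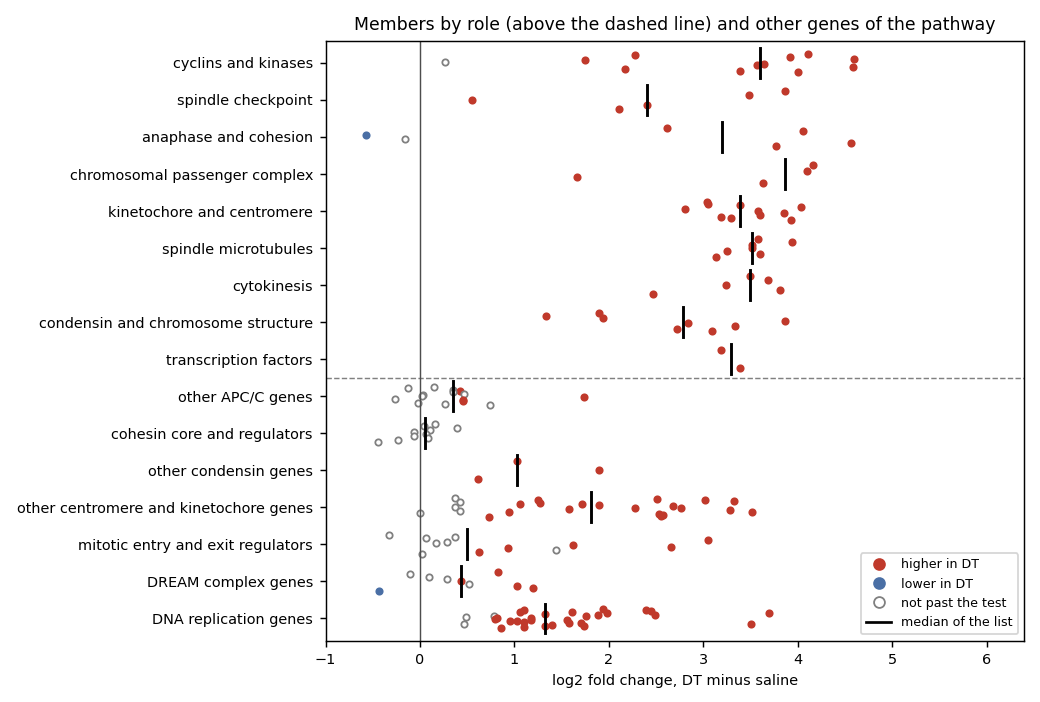
Log2 fold change (DT minus saline) of each gene tested, by role for the 60 genes above the dashed line and for the other lists below it, with a black bar at each median. Role medians lie between 2.4 and 3.87, and those of the other lists between 0.05 and 1.81.

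Reads of overlapping genes cannot always be told apart. Of the 60 genes 22 overlap another annotated gene, 9 of them a protein-coding one: Ccna2, Aurka, Cdc20, Cenpk, Nusap1, Prc1, Anln, Ncapg and Foxm1. The longest overlap with a protein-coding gene is that of Prc1, where Rccd1 covers 21669 bases on the other strand. Rccd1 had 297, 351 and 459 reads in DT libraries, against 56, 72 and 89 in saline libraries. Prc1 had 2632, 4169 and 6782 reads in DT libraries, against 485, 413 and 477 in saline libraries. Whether counting used strand is not given in the sources used here. None of the 60 had counts identical to those of another gene in every library.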

How the data were processed

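Polyadenylated RNA was purified from sorted cells with the RNeasy Micro kit, per the labels' protocols, and reads were aligned with GSNAP to GRCm38, per the submitters' processing notes. Deposited counts are reads placed uniquely on each gene model, and deposited RPKM were further adjusted by library size factors, both per the file headers. Identifiers were named from RefSeq GRCm38.p6, which matched 31049 of 36528 (Sgol1 is listed there as Sgo1). Libraries are numbered in record order, which pairs none.

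Counts were tested with edgeR 4.0.16 (R 4.3.3): filterByExpr (minimum count 10, minimum total 15) kept 15132 genes, with TMM scaling, the robust quasi-likelihood test without covariates, and Benjamini-Hochberg adjustment over all genes. The procedure was also run on counts simulated from the fitted spread of each gene. Such counts hold no effect of a single library, so that run does not speak to DT library 1 or saline library 1. CPM are TMM-scaled, errors are SD over 3 libraries, and log2 fold changes are DT minus saline with SE from the F statistic. Levels between genes are compared in deposited RPKM. No pair of libraries in a group agreed within counting error (chi-square over its degrees of freedom, 19.9 to 60.0). The genes, their roles, the other lists and the motifs were chosen with earlier results of these data known, so no list was tested. All 60 genes were to be described, with up to 3 examples per other list. Alternatives were DESeq2 1.42.0 and its size factors, limma-voom (limma 3.58.1), limma on log2(RPKM + 1) and log2(RPKM + 0.1), library size scaling, 2 other filters, blocks by submitters' identifiers, and leaving out libraries.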

Additional observations from a re-analysis of the deposited data

How the results depend on the processing

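The number of genes that rose was 56 or 57 under all alternatives run, and Pttg1 fell in all of them except when only the 4 libraries of the larger identifier series were used, where 0 fell (edgeR; Pttg1 at -0.57, adjusted p = 0.126). The median log2 fold change was 2.73 with limma on log2(RPKM + 1), a scale that understates changes of low genes, and 3.17 to 3.64 with 1 library left out. With the identifier series as a block it was 3.42, and with consecutive identifiers as a pair 3.40; the labels do not say that either marks a shared batch or animal. Bub3 was the other gene whose call was lost: with library size scaling (0.46), with limma on log2(RPKM + 1) (0.53) and log2(RPKM + 0.1) (0.54), in the larger identifier series (0.45) and without any library other than DT library 1. Espl1 ranged from -0.42 to 0.11 with 1 library left out and passed in none. The other members kept their direction and their call under every alternative. Members with few saline reads, such as Mybl2 and Ska1, are limited by depth in the size of their fold change.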
